A study of Sus scrofa with 12 samples.

Results

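Of 43221 probes on an Agilent pig array, a rule kept 150 in differentiating porcine preadipocytes. The siRNAs against F2RL2 and LGR4 moved these in the same direction. An siRNA against GPR124 moved them little on the scale used to choose them. Against control siRNA, 103 of them had higher and 47 had lower levels, and they are named the risen and the fallen probes. The members were chosen by their measured differences from control siRNA, so these differences are a description and not a finding. Each array gave a log2 ratio of differentiated, transfected cells over undifferentiated cells, taken from the scanner's processed signals and set to a median of 0 over all probes. A risen probe had a mean log2 ratio at least 0.8 above the control mean (1.74-fold) under both the F2RL2 and the LGR4 siRNA, and a fallen probe at least 0.8 below it under both. In either case the GPR124 mean had to lie within 0.4 of the control mean (1.32-fold). The signal of the transfected cells also had to be well above background on all 3 arrays of whichever of the F2RL2, LGR4 and control groups was highest. The size limits alone were met by 240 risen and 63 fallen probes, of which the background requirement left out 137 and 16.

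The cells were subcutaneous preadipocytes, the precursors of fat cells, of female pig origin. They received siRNA against F2RL2 (3 arrays), LGR4 (3 arrays) or GPR124 (3 arrays), each designed by Sigma, or AllStars Negative Control siRNA from Qiagen (3 arrays). All 4 groups were then differentiated for 4 days in high-glucose medium with serum, insulin (5 µg/ml), dexamethasone (0.25 µM), biotin (33 µM), pantothenate (17 µM) and octanoate (5 mM). The same reference RNA, from untransfected preadipocytes at day 0, was hybridised in the other dye on every array. The F2RL2 group follows the sample titles, since a second label field spells its target R2RL2. The labels do not say how many siRNA sequences were used per target, how far the target transcript was reduced, or whether the 3 replicates of a group came from different cultures. A p-value here therefore reflects array-to-array spread alone, and that spread may be technical.

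F2RL2 encodes a protease-activated receptor, which is cleaved by thrombin and, in mouse platelets, acts as a cofactor for another receptor of its family. LGR4 binds R-spondins and raises Wnt signalling by taking the ubiquitin ligases RNF43 and ZNRF3 off the cell surface, where they remove Frizzled receptors. GPR124, an adhesion receptor also named ADGRA2, acts with RECK in signalling by Wnt7 ligands through Frizzled. Wnt signalling generally holds preadipocytes back from becoming fat cells, a step driven by C/EBP factors and PPARG and induced in culture by insulin and a glucocorticoid such as dexamethasone.

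None of the 43221 probe identifiers could be paired with a gene from the files and tables used here. The members are therefore described by their values and not by function, the level of the targeted transcripts is not reported, and no marker of fat cells or of other cell types was read. In RNA from whole cultures, fewer cells of a type and less RNA per cell cannot be told apart. Between 24720 and 29381 probes were well above background in Cy3, the dye of the transfected cells. In Cy5, the dye of the reference, 23594 to 26485 probes were so on the GPR124 arrays and 27003 to 32394 on the other arrays. The arrays lay on 3 slides: the first held F2RL2 replicate 1 with all control arrays, the second F2RL2 replicates 2 and 3 with LGR4 replicates 1 and 2, and the third LGR4 replicate 3 with all GPR124 arrays. Scanner software marked 154 to 335 outlier spots on each array of the third slide and 1 to 4 on each of the others. On the scale used to choose the members, the GPR124 arrays as a whole stood above the control arrays, by a median of 0.33 over the 26923 probes that met the background requirement, against 0.089 for F2RL2 and -0.037 for LGR4.

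The risen probes had a median log2 difference from control siRNA of 1.13 with F2RL2, 1.21 with LGR4 and 0.073 with GPR124 siRNA. Ranges are given for probes whose signal was well above background on at least 1 array of both groups, and at least once in the reference. There the difference ran from 0.80 to 2.40 with F2RL2 siRNA (94 probes), from 0.80 to 4.92 with LGR4 siRNA (94 probes) and from -0.35 to 0.40 with GPR124 siRNA (88 probes). Over all 103 the quartiles were 0.96 and 1.36 for F2RL2, 0.97 and 1.70 for LGR4, and -0.16 and 0.26 for GPR124. Array by array, the median difference from the control mean was 1.16, 0.96 and 1.29 on the F2RL2 arrays and 1.26, 1.32 and 1.23 on the LGR4 arrays. It was 0.073, 0.23 and -0.035 on the GPR124 arrays and 0.060, -0.027 and -0.024 on the control arrays. No F2RL2 or LGR4 array came near the others in this median.

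The median over all 47 fallen probes was -1.08 with F2RL2, -1.17 with LGR4 and -0.099 with GPR124 siRNA. Ranges again cover the probes that met the signal conditions given for the risen probes. The difference ran from -2.13 to -0.80 with F2RL2 siRNA (41 probes) and from -2.60 to -0.82 with LGR4 siRNA (34 probes). With GPR124 siRNA it ran from -0.38 to 0.36 (43 probes). On the GPR124 arrays Cy5 was well above background for only 22 to 29 of the 47 fallen probes. The median per array was -1.21, -1.25 and -0.82 on the F2RL2 arrays, -1.33, -1.21 and -1.20 on the LGR4 arrays, -0.11, -0.12 and -0.063 on the GPR124 arrays, and -0.052, -0.051 and 0.15 on the control arrays. F2RL2 replicate 3 was the weakest of the 6 arrays: 27 of 47 fallen probes lay at least 0.8 below the control mean there, against 40 to 45 on each of the other 5. On the risen side the same array was the strongest, with 101 of 103 probes at least 0.8 above the control mean, against 75 to 96 on the other 5. Over all probes that met the background requirement, this array stood above the control mean by a median of 0.25. The other 5 had medians from -0.066 to -0.0058. Whether this offset bears on the counts was not tested. Chosen again without that array, the set held 84 risen and 68 fallen probes.

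Replicate arrays were spread unevenly. The median SD over 3 arrays of a risen probe was 0.23 for F2RL2, 0.12 for LGR4, 0.25 for GPR124 and 0.12 for control siRNA. The widest GPR124 spread of a risen probe was an SD of 1.44, so a mean within 0.4 of control can hide arrays that lie far apart. For a fallen probe the median SD was 0.39, 0.29, 0.21 and 0.21, against 0.20, 0.13, 0.16 and 0.087 over all probes that met the background requirement. The fallen probes were also dim: their reference signal had a median of 5.90 on the log2 scale, against 8.67 for the risen probes and 9.45 for all probes that met the requirement.

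All 3 F2RL2 arrays lay above all 3 control arrays for 101 of the 103 risen probes (23.4% of all probes that met the background requirement), and all 3 LGR4 arrays did so for 102 (22.4%). The F2RL2 arrays also lay wholly above the GPR124 arrays for 92 (12.2%), and the LGR4 arrays for 94 (10.4%). All of these separations held together for 88 risen probes (3.03%). Of the 47 fallen probes, the F2RL2 arrays lay wholly below the control arrays for 38 (11.9%) and below the GPR124 arrays for 37 (40.2%), and the LGR4 arrays for 46 (28.0%) and 40 (51.7%). All held together for 33 (5.09%). The choice of the probes fixed these separations in large part, so nothing is read from them.

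The limits cut through a continuous range of values. The smaller of the 2 shifts was 0.802 and 0.803 for the risen probes just within the limit and 0.796 and 0.787 for those just outside, with 35 probes within 0.1 inside and 52 within 0.1 outside. For the fallen probes it was 0.8002 and 0.801 just inside and 0.792 and 0.787 just outside, with 14 probes on each side. The distance of GPR124 from control reached 0.395 inside and 0.402 outside among the risen probes, and 0.378 and 0.4004 among the fallen ones. Both shifts were at least 1 for 51 risen and 24 fallen probes, and at least 1.5 for 15 and 6. The set is thus a small piece of a larger one. Of 554 probes raised by at least 0.8 under both siRNAs, the GPR124 mean lay at least 0.4 above control for 415. It lay as far below control for 36 and within 0.4 for 103. Of 349 lowered under both, it lay at least 0.4 below control for 272, as far above for 30 and within 0.4 for 47. Over all probes that met the background requirement, the GPR124 difference had quartiles of 0.044 and 0.63, so values above 0.4 were common on this scale.

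Single probes show how far F2RL2 and LGR4 siRNA could differ while both met the limits. AGPOA3-20983, the risen probe with the largest smaller shift among the probes readable in the reference on all 12 arrays, had log2 ratios of -0.51, -0.89 and -0.79 with F2RL2 siRNA (mean -0.73 ± 0.20, SD, n = 3), 1.78, 1.85 and 1.97 with LGR4 siRNA (1.86 ± 0.097), -2.99, -2.71 and -3.34 with GPR124 siRNA (-3.01 ± 0.31) and -3.01, -3.21 and -2.96 with control siRNA (-3.06 ± 0.13). In control and GPR124 cells this transcript was thus far below its day 0 level, in F2RL2 cells it was moderately below and in LGR4 cells above it, with no overlap between these 3 levels. Its signal was well above background on only 1 of the 3 GPR124 arrays.

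AGPOA3-50787, next in the same order, had log2 ratios of 2.45, 1.97 and 2.40 with F2RL2 siRNA (2.27 ± 0.27), 2.16, 2.26 and 1.39 with LGR4 siRNA (1.94 ± 0.48), -0.10, 0.22 and 0.024 with GPR124 siRNA (0.049 ± 0.16) and 0.066, -0.013 and 0.0022 with control siRNA (0.018 ± 0.042). Control and GPR124 cells lay near the day 0 level, and all F2RL2 and LGR4 arrays lay well above it. The lowest of the 6, LGR4 replicate 3, was a spot that the scanner software marked as an outlier, and it was left out of the limma fit.

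Both fallen examples lay near or above the day 0 level in control and GPR124 cells. AGPOA3-44880 had log2 ratios of -1.41, -0.51 and -0.66 with F2RL2 siRNA (-0.86 ± 0.48), -0.85, -0.93 and -0.98 with LGR4 siRNA (-0.92 ± 0.066), 0.55, 0.29 and 0.22 with GPR124 siRNA (0.35 ± 0.17) and 0.32, 0.45 and 0.67 with control siRNA (0.48 ± 0.18). AGPOA3-33699 had -2.20, -2.58 and -1.70 with F2RL2 siRNA (-2.16 ± 0.44), -1.68, -1.43 and -0.99 with LGR4 siRNA (-1.37 ± 0.35), -0.044, 0.065 and -0.20 with GPR124 siRNA (-0.060 ± 0.13) and -0.15, -0.21 and 0.27 with control siRNA (-0.032 ± 0.26). In both, every F2RL2 and LGR4 array lay below every GPR124 and control array.

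A fit with limma on another set of signals from the same arrays, normalized by loess so that no group stood above another as a whole, gave smaller differences. After loess the median log2 difference from control of the 32346 probes tested was 0.021 for F2RL2, 0.027 for LGR4 and 0.026 for GPR124. The risen probes had a median of 0.81 with F2RL2 siRNA and 0.99 with LGR4 siRNA, and the fallen probes -0.81 and -0.67. With F2RL2 siRNA, 89 risen probes were higher than control at a limma adjusted p under 0.05 (10.0% of all probes tested) and 39 fallen probes lower (7.95%). With LGR4 siRNA, 92 risen probes were higher (13.7%) and 35 fallen probes lower (9.37%). Both differences passed for 85 risen probes (6.07%) and 33 fallen probes (4.29%). Against GPR124 siRNA, 95 risen probes were higher with F2RL2 siRNA (19.3%) and 96 with LGR4 siRNA (18.9%), and 32 (22.1%) and 26 (18.6%) fallen probes were lower. All 4 tests passed for 84 risen (3.15%) and 23 fallen probes (1.63%). The same arrays chose the probes, so these counts describe how the choice carried over to the other signals and test nothing.

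The nearness of the members to control under GPR124 siRNA depended on the scale. Measured from the median of 0.33 that all probes meeting the background requirement had under GPR124 siRNA, the median of the risen probes was -0.26, with 91 of 103 below it, and that of the fallen probes -0.43, with 46 of 47 below it. The rule kept every member less than 0.4 above control, so these counts were largely fixed by the choice. After loess the median difference between GPR124 and control siRNA was -0.069 for the risen and -0.26 for the fallen probes. At a limma adjusted p under 0.05, 2 risen probes were higher and 18 lower, and 18 fallen probes were lower, where 22.5% of all probes tested were higher and 16.9% lower. The split turned over with the processed signals, on which 13 risen probes were higher and 2 lower, and 2 fallen probes were lower. There 50.2% of all probes were called in either direction, at a median difference of 0.36. AGPOA3-44880, for instance, differed between GPR124 and control siRNA by -0.13 on the processed scale (limma adjusted p = 0.631). After loess it differed by -0.37 and passed (adjusted p = 0.016 in limma), and with slide as a block by -0.81 (0.0333). It did not pass with Cy3 alone (0.065) or with median centring (0.187). Nor did it pass without control replicate 2 (0.0552), control replicate 3 (0.058) or GPR124 replicate 3 (0.0618). With the limits applied to the loess ratios, 38 of the 103 risen and 10 of the 47 fallen probes still met them. Of the others, 53 risen and 26 fallen probes no longer reached 0.8, 10 and 6 lay beyond the GPR124 limit, and 2 and 5 failed both.

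On single GPR124 arrays, 76, 65 and 84 of the risen probes and 38, 39 and 36 of the fallen probes lay within 0.4 of the control mean, and 41 risen and 24 fallen probes did so on all 3. The GPR124 arrays lay wholly above the control arrays for 18 risen probes (55.0% of all probes that met the background requirement) and wholly below them for 6 fallen probes (11.8%). Many of these spots were dim. Cy3 was well above background for 65, 91 and 71 of the 103 risen probes on the GPR124 arrays, against 89 to 91 on the control arrays, and for 28, 44 and 31 of the 47 fallen probes, against 47 on every control array. Cy5 was well above background for 71 to 82 risen and 22 to 29 fallen probes on the GPR124 arrays, and for 84 to 98 and 32 to 46 on all other arrays. No array of the group had Cy3 well above background for 1 risen probe with F2RL2, 4 with LGR4, 10 with GPR124 and 9 with control siRNA, and for 6, 12, 3 and 0 fallen probes in the same order. A difference is only a bound where 1 of its groups was this dim. Both groups were so for 4 risen probes between GPR124 and control siRNA, 4 between LGR4 and control and 1 between F2RL2 and control, and no size can be given for these. Cy5 was well above background on no array for 2 risen and 1 fallen probe. No member spot was saturated.

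Among the members, 56 risen and 18 fallen probes were well above background in both dyes on all 12 arrays. They had met the same limits on the processed scale, so their medians on it were largely fixed by the choice. On the processed scale these risen probes had medians of 1.09 with F2RL2, 1.17 with LGR4 and 0.091 with GPR124 siRNA, and the fallen probes -1.02, -1.06 and -0.078. After loess, GPR124 siRNA lowered 17 of these 56 and 9 of these 18 at an adjusted p under 0.05 in limma, against 18 of 103 and 18 of 47 among all members and 16.9% of all probes tested. Brightness had chosen these probes, and the difference between the shares was not tested.

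The rule set neither the sign nor the size of the difference between F2RL2 and LGR4 siRNA, which was put to a direct test. The means and signals of both groups did enter the choice, and choosing large shifts can favour large differences between them. The counts are therefore a description beside the shares over all probes. Most members did not pass, and among those that did, the risen probes were mainly lower with F2RL2 siRNA than with LGR4 siRNA. In limma, 35 risen probes were lower and 4 higher with F2RL2 siRNA at an adjusted p under 0.05, and 64 did not pass. Over all probes tested 8.38% were lower and 5.55% higher. Each probe was counted singly. The 103 risen probes held only 91 distinct profiles over the arrays, so near-identical probes can count more than once. The median difference over the risen probes was -0.17, with 66 below 0 and 37 above, against -0.011 over all probes. Of the fallen probes, 4 were higher and 1 lower with F2RL2 siRNA while 42 did not pass. Their median difference was -0.020. A probe that did not pass was not shown to respond alike.

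The largest difference was that of AGPOA3-20983, 5.61-fold lower with F2RL2 siRNA (log2 difference -2.49, SE 0.11, limma adjusted p = 4.1e-08). The next 4 differences were -1.87, -1.47, -1.47 and -1.44, or 3.66-fold to 2.72-fold, and the rest of the 35 lay between -0.89 and -0.32. Of these 35, all passed against control siRNA with LGR4 siRNA and 32 with F2RL2 siRNA in the same fit, both in the direction by which they were chosen. The 4 risen probes that were higher with F2RL2 siRNA differed by 0.57 to 0.81. AGPOA3-33699 was the fallen probe that was lower with F2RL2 siRNA, by -0.48 (SE 0.11, adjusted p = 0.0146 in limma). It did not pass with Cy3 alone (adjusted p = 0.0853), with slide as a block (0.124), within the second slide (0.204), on the processed signals (0.0663) or with median centring in place of loess (0.0959). Nor did it pass without F2RL2 replicate 2 (0.0559) or without LGR4 replicate 3 (0.0677). With the processed signals, AGPOA3-20983 differed by -2.59. The 4 fallen probes that were higher with F2RL2 siRNA differed by 0.35 to 0.44. AGPOA3-50787 and AGPOA3-44880 differed between F2RL2 and LGR4 siRNA by -0.030 (SE 0.17, adjusted p = 0.951) and 0.020 (SE 0.11, adjusted p = 0.949) in limma.

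The second slide held 2 arrays of each of these groups. Within it, 18 risen probes were lower and 2 higher with F2RL2 siRNA, and 0 fallen probes passed (3.46% of all probes in either direction; on all arrays without the block, 13.9%). With slide as a block over all arrays, 30 risen probes were lower and 3 higher and 0 fallen probes passed (8.08% of all probes). On the processed signals 17 risen probes were lower and 5 higher, so the share that was higher was 5 of 22 (10.2% of all probes were called in either direction). The direction of the risen probes as a group was the same in each of these settings.

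Set against the day 0 reference, the fallen probes were mostly transcripts that control cells raised by day 4, and the risen probes were of every kind. In the 3 control arrays, 37 of 47 fallen probes were higher at day 4 than in the reference (28.6% of all probes tested), 3 were lower (34.6%) and 7 did not pass in limma. Of the 103 risen probes, 26 were higher, 50 were lower and 27 did not pass. The control arrays enter both this ratio and the choice of members, and a low control value favours a rise and a high one a fall, so part of this pattern is built in. Dye and transfection are also part of the ratio, because only the reference was untransfected and dyes were not swapped.

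Among the 50 risen probes that were lower in control cells than at day 0, the median log2 ratio after loess was -0.25 with F2RL2, -0.013 with LGR4, -1.09 with GPR124 and -1.02 with control siRNA. Under both the F2RL2 and the LGR4 siRNA 42 of the 50 were nearer to the reference than in control cells, and 27 lay within 0.5 of it under both. Since a risen probe was chosen for lying above control, a probe below 0 in control cells had to move up, towards the reference or past it, so this too is a description. AGPOA3-20983 belongs here, at -1.95 in control cells after loess. The 26 risen probes that were higher in control cells had medians of 1.49 with F2RL2, 1.93 with LGR4, 0.44 with GPR124 and 0.48 with control siRNA, and all 26 were farther from the reference under both siRNAs than in control cells. Those 27 that did not pass had medians of 0.62, 0.74, -0.073 and 0.044 in the same order. Among the 37 fallen probes that were higher in control cells, the medians were 0.056 with F2RL2, 0.059 with LGR4, 0.39 with GPR124 and 0.83 with control siRNA. Likewise by the choice in part, 35 of these 37 were nearer to the reference under both the F2RL2 and the LGR4 siRNA than in control cells, and 30 lay within 0.5 of it under both. The GPR124 median of this group lay between the medians of both siRNAs and that of control cells.

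Read from each dye alone, the shifts lay in the transfected cells' dye. The members were chosen on ratios of these same arrays, so the size of the shifts was largely set by the choice. That they lay in Cy3 was largely set by the design, since Cy5 carried a shared reference. In Cy3 the risen probes had a median difference from control of 0.80 with F2RL2 and 0.94 with LGR4 siRNA, and the fallen probes -0.70 and -0.72. In Cy5, which carried the same reference RNA everywhere, the medians were 0.037 and 0.049 for the risen and -0.013 and -0.067 for the fallen probes. With GPR124 siRNA the Cy3 medians were -0.16 for the risen and -0.27 for the fallen probes, with 77 of 103 and 44 of 47 below 0, and the Cy5 medians were 0.00 and -0.10. Limma on Cy3 alone called 79 risen and 32 fallen probes with F2RL2 siRNA (13.5% of all probes) and 86 and 34 with LGR4 siRNA (18.6%), all in the direction that defined them. With GPR124 siRNA it called 1 risen probe higher and 23 lower, and 17 fallen probes lower (32.8%). On Cy5 alone 0 risen and 1 fallen probe were called with F2RL2 siRNA (0.102%), 0 and 1 with LGR4 siRNA (0.117%), and 3 and 2 with GPR124 siRNA (1.89%). With Cy3 alone, GPR124 siRNA stayed within 0.4 of control for 81 risen and 31 fallen probes, and moved 19 risen probes the opposite way and 16 fallen probes the same way by at least 0.4. In Cy3 the 0.8 limit was reached by 51 of 103 risen probes with F2RL2 siRNA and 62 with LGR4 siRNA. Of the 47 fallen probes, 19 reached it with F2RL2 siRNA and 19 with LGR4 siRNA.

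Slide and siRNA were partly confounded, since no slide held a control array together with an LGR4 or GPR124 array. Where a slide held both sides of a comparison, 1 side was a single array on the first and the third slide, and these values are given with no test. On the first slide, F2RL2 replicate 1 minus the control mean had a median of 1.16 over the risen and -1.21 over the fallen probes, and was at least 0.8 in the defining direction for 91 and 45. On the third slide, LGR4 replicate 3 minus the GPR124 mean had a median of 1.23 over the risen and -1.21 over the fallen probes, and was at least 0.8 in the defining direction for 89 and 39. These arrays also took part in the choice. With slide as a block over all arrays, F2RL2 siRNA raised 78 risen and lowered 31 fallen probes against control (12.8%), LGR4 siRNA raised 74 and lowered 18 (8.38%), and GPR124 siRNA raised 1 risen and lowered 3 fallen probes (7.89%). In that fit 3 fallen probes lay above control and 1 risen probe below it with LGR4 siRNA.

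Arrays that took no part in the choice gave a similar picture. When the F2RL2 and LGR4 arrays of the second slide alone chose the probes, with all GPR124 and control arrays, 137 risen and 46 fallen probes were found, of which 88 and 38 were members. On the array of the first slide that was left out, F2RL2 replicate 1, the 137 probes had a median of 1.02 above the control mean, 132 lay above it and 90 by at least 0.8 (4.67% of all probes that met the background requirement). All 46 fallen probes lay below it there, with a median of -1.17, and 41 by at least 0.8 (4.07%). On the array of the third slide that was left out, LGR4 replicate 3, 133 of the 137 lay above the GPR124 mean, 99 by at least 0.8 (4.03%), with a median of 1.11. All 46 fallen probes lay below it, 32 by at least 0.8 (18.6%), with a median of -1.03. The control and GPR124 means that these arrays were set against did enter the choice.

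Leaving out 1 array at a time gave the same comparison for every array. The control mean set against an F2RL2, LGR4 or GPR124 array had entered the choice, so these shares are not independent of it. Of the risen probes chosen without it, 62.9% to 97.6% lay at least 0.8 above the control mean on an F2RL2 or LGR4 array that was left out, against 3.01% to 9.08% of all probes that met the background requirement. Of the fallen probes it was 76.0% to 87.8% on 5 of these arrays and 39.7% on F2RL2 replicate 3, against 2.31% to 5.34%. On a GPR124 array that was left out, 51.8% to 68.8% of the risen and 66.0% to 75.6% of the fallen probes lay within 0.4 of the control mean, against 38.7% to 49.0% of all probes. For the risen probes on GPR124 replicate 2, 51.8% stood against 49.0%, close to the share of any probe on that array. For a control array that was left out, the mean of the F2RL2 and LGR4 groups lay at least 0.8 above it for 84.0% to 88.1% of the risen probes, against 3.56% to 4.04% of all probes. It lay at least 0.8 below it for 72.5% to 94.7% of the fallen probes, against 2.08% to 3.03%. The F2RL2 and LGR4 means had themselves chosen these probes, so the shares for a control array were largely fixed by the choice.

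Some members may not be separate transcripts. Among the risen probes, 19 differed from at least 1 other by less than 0.3 on each of the 12 arrays, which left 91 distinct profiles. The largest such group had 5 probes, with mean log2 ratios of 1.44 with F2RL2, 1.92 with LGR4, 0.70 with GPR124 and 0.37 with control siRNA, and an SD between probes of at most 0.062. Among the fallen probes 1 pair was this close, which left 46 distinct profiles. Whether such probes share a transcript was not tested, as the files used here hold no sequences. Member spots were spread over the array: cut by spot row into 4 equal bands, it held 28, 34, 17 and 24 risen and 7, 12, 16 and 12 fallen probes.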

How the data were processed

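RNA of 12 two-colour arrays in 4 groups of 3 was analysed. Per the file headers, spots were read with Agilent Feature Extraction 9.5.3.1, which also subtracted background, removed spatial trends and normalized the dyes to make the deposited processed intensity. The deposited median spot and background intensities carry no normalization. The deposited log10 ratio column gives Cy5 over Cy3 and was used to check direction. The authors' deposited value table holds log2 ratios equal to log2 of processed Cy3 over Cy5 within 5e-10, so its scale and direction are known and it is not centred. Its medians were 0.11, 0.13 and -0.089 (F2RL2 siRNA replicates 1 to 3), 0.12, 0.11 and 0.15 (LGR4), -0.25, -0.15 and -0.21 (GPR124) and 0.12, 0.14 and 0.087 (control). How this software's steps were set beyond the headers is not given in the sources used here.

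Members were chosen on processed ratios centred at each array's median over 43221 probes (1417 control spots left out). They, and the settings compared, were chosen with earlier results of these data known. Named probes are the first 2 risen and the first 2 fallen by the smaller of both shifts, among members well above background in Cy3 on the brightest group and in Cy5 on all arrays. Tests used limma 3.58.1 in R 4.3.3 on all 12 arrays: normexp (offset 50) on median signals, loess with control spots at weight 0, outlier spots left out, and 32346 probes well above background in 1 channel on at least 3 arrays, with Benjamini-Hochberg adjustment over all of them. Each dye alone was quantile-normalized. The design had assumed gene names, which no table used here gives, so the planned marker genes were not analysed. The test script was checked on simulated data. The number of arrays limits the precision. The labels do not say that a replicate number marks a shared culture or day, and same-numbered arrays did not all deviate together, so no block was used. Alternatives were other signals and scaling, filters, slide as a block, single slides, the replicate block and each array left out.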

Additional observations from a re-analysis of the deposited data

Results flagged for a closer look

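The F2RL2 and LGR4 groups differed from each other under the same control in a direct test (limma, F2RL2 against LGR4 siRNA). By that test 35 risen probes were lower (34.0%) and 4 higher (3.9%) with F2RL2 siRNA. Among the fallen probes 1 was lower (2.1%) and 4 were higher (8.5%). The shares over all probes tested were 8.38% lower and 5.55% higher. Within the second slide and with slide as a block, 0 fallen probes passed. Both groups entered the choice of members, so these counts are a description. Near-identical probes were counted singly, and the 103 risen probes held 91 distinct profiles. The named probes that passed were AGPOA3-20983, with a log2 difference of -2.49, and AGPOA3-33699, with one of -0.48. The call of AGPOA3-33699 was lost with Cy3 alone (adjusted p = 0.0853), with slide as a block (0.124), within the second slide (0.204), on the processed signals (0.0663), with median centring (0.0959), and without F2RL2 replicate 2 (0.0559) or LGR4 replicate 3 (0.0677), all in limma. With 3 arrays per group, single arrays were not tested as outliers within a group.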

How the results depend on the processing

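The number of members depended on the limits and the signals. With a limit of 1.0 there were 51 risen and 24 fallen probes, without the background requirement 240 and 63, and with both dyes well above background on all 12 arrays (chosen after seeing the data) 56 and 18. Loess ratios gave 98 risen probes, 38 of them members, and 13 fallen probes, 10 of them members. Cy3 alone (chosen after seeing the data) gave 83 and 134, of which 32 and 8 were members, and the value table without centring 140 and 36, of which 60 and 21 were. Leaving out 1 array gave 84 to 117 risen and 38 to 68 fallen probes. The cause of these changes was not tested.

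Cy5 alone, which carried only the reference, is left out of the following comparison. Members called for F2RL2 against control siRNA numbered 128 (113 to 129 with 1 array left out), beside 17.9% of all probes tested. For LGR4 against control siRNA they numbered 127 (115 to 130), beside 23.1% of all probes. For control cells against the reference they numbered 116 (108 to 118), beside 63.2%. The calls stayed within 1.5 times these counts under every other alternative run. For GPR124 against control siRNA the count was 38 (27 to 41), beside 39.4% of all probes. It was 17 with processed signals (50.2% of all probes), 4 with slide as a block (7.89%) and 11 with median centring (10040 of 32344 probes). For F2RL2 against LGR4 siRNA the count was 44 (35 to 47), beside 13.9% of all probes. It was 26 with processed signals (10.2% of all probes), 20 with median centring (1377 of 32346 probes) and 20 within the second slide (3.46%). AGPOA3-33699 lost its LGR4 call with slide as a block (log2 difference -0.80, adjusted p = 0.0525). Of 18 pairs of same-numbered arrays 7 correlated above 0.1 (-0.587 to 0.553), among them all 3 pairs of LGR4 with GPR124 arrays (0.553, 0.414 and 0.229). The labels do not say what a number marks. With the replicate block the counts were 123, 122, 35, 46 and 117, in the order F2RL2, LGR4 and GPR124 against control, F2RL2 against LGR4, and control against the reference. Over all probes tested the calls then numbered 4850, 6525, 11898, 3772 and 19721 in that order. Signal over background leaves 56 of 103 risen and 18 of 47 fallen probes readable in both dyes on every array.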
